A study of Oncorhynchus mykiss with 6 samples.

Results

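The miRNAs described here are the annotated ones with high family numbers: every row of the count table named ssa-miR- with a family number of 720 or more, except miR-731 and miR-7132. They made up 29 of the 1381 rows and 29 of the 392 rows with an Atlantic salmon (ssa) name, in 18 of the 113 annotated families. The rule uses the names alone and no measured value, though it was set with earlier results of these data known. Small RNA was sequenced from the head kidney of 6 female rainbow trout (Oncorhynchus mykiss) aged 1 year, with 1 library per fish. The heat-treated group (HK) held 3 fish at 24 °C and the control group (CK) 3 fish at 18 °C. All 6 fish shared sex, age and organ. No strain or genotype is labelled, and neither is the time spent at 24 °C. The labels do not say how the fish were housed. The p-values set the difference between groups against the spread between these 6 fish. A tank shared within a group could not be told apart from temperature.

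MicroRNAs (miRNAs) are short RNAs cut from a hairpin precursor, and each hairpin can yield a product from its 5′ arm (5p) and from its 3′ arm (3p). Usually one arm is loaded into an Argonaute protein, where it guides the repression of matching mRNAs, and the other is degraded. miRNA families are numbered in the order of their discovery, so high numbers tend to mark families that were found late, and many of those listed here are known mainly from fish. Not all belong to fish alone, since miR-1788, miR-2184 and miR-2188 are also known from chicken. The head kidney makes blood and immune cells in teleosts, much as bone marrow does in mammals. Among these families miR-722 has a known role in blood cells: raised in zebrafish neutrophils, it restrains their migration through the small GTPase Rac2. The table holds names without sequences.

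The libraries held 3753036 to 5156793 counts, so that 3 counts, used as the detection floor, equalled 0.579 to 0.807 CPM (counts scaled to a common library total, with TMM factors throughout). The organ's label was set against marker miRNAs of cell types. The endothelial miR-126 summed to 87082 to 101990 CPM in the heat and 81200 to 107154 CPM in the control libraries, and the leukocyte list, with rows for 3 of its 4 families, to 13832 to 17472 CPM in the heat and 9590 to 17031 CPM in the control libraries. Kidney tubule miRNAs summed to 1763 to 2548 CPM in the heat and 2115 to 2993 CPM in the control libraries, and the liver miRNA miR-122 reached at most 74.1 CPM in the heat and 81.6 CPM in the control libraries. The epithelial list summed to 405 to 435.3 CPM in the heat and 434.5 to 838 CPM in the control libraries. The striated muscle list (11 rows, all counted) summed to 1137 to 2326 CPM in the heat and 411 to 725 CPM in the control libraries. The red cell list held both arms of miR-144, no row of miR-451, and 405 to 3052 CPM in the heat against 383 to 870 CPM in the control libraries. In whole-organ RNA, more or fewer cells of a type cannot be told apart from more or less RNA per cell.

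The 29 high-numbered miRNAs of this set were scarce in this organ. Together they took 0.143% of all counts, while the other 363 annotated rows took 94.8% and the 989 predicted rows 5.06%. None of the 29 reached a mean of 1000 CPM, a level that 67 of the other annotated rows passed, and 2 reached 100 CPM, against 130 of the others. Rows of miR-731 and miR-7132, the high-numbered families that the rule leaves out, were among the others that passed 1000 CPM. Their means were 6178 CPM for miR-731-5p, and 4627, 1565 and 1560 CPM for miR-7132b-3p, miR-7132a-5p and miR-7132b-5p. The means of miR-731-3p and miR-7132a-3p were lower, at 207 and 38.7 CPM. The median total of the 29 rows over the 6 libraries was 25 counts, against 558 for the other annotated and 16 for the predicted rows. The filter on low counts kept 13 of the 29 for testing (44.8%), against 74.4% of the other annotated and 25.7% of the predicted rows. A comparison list of families outside this set held miR-430, miR-457, miR-458, miR-459, miR-460, miR-462, miR-731 and miR-7132. Its rows together held 23.8 times as many counts as all 29, but the list was uneven. Its most abundant rows were miR-462a-5p and miR-462b-5p, at means of 11204 and 7753 CPM, followed by the miR-731 and miR-7132 rows above 1000 CPM. Among its other rows, miR-458-3p averaged 684 CPM, and miR-460-5p, miR-459-5p and miR-459-3p only 10.8, 8.75 and 3.55 CPM. The names do not show whether these families occur in fish alone.

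Most of what was counted came from miR-2188 and miR-1338. miR-2188 supplied 65.0% of the counts of the 29 rows and miR-1338 16.9%. They were followed by miR-724 (6.53%), miR-722 (4.31%), miR-734 (3.16%), miR-2187 (1.45%) and miR-725 (1.04%). Each of miR-730, miR-727 and miR-8159 stayed between 0.387% and 0.543%. The other 8 families, miR-723, miR-729, miR-736, miR-737, miR-1788, miR-2184, miR-7552 and miR-8160, had no row that could be tested.

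**Figure D1:**
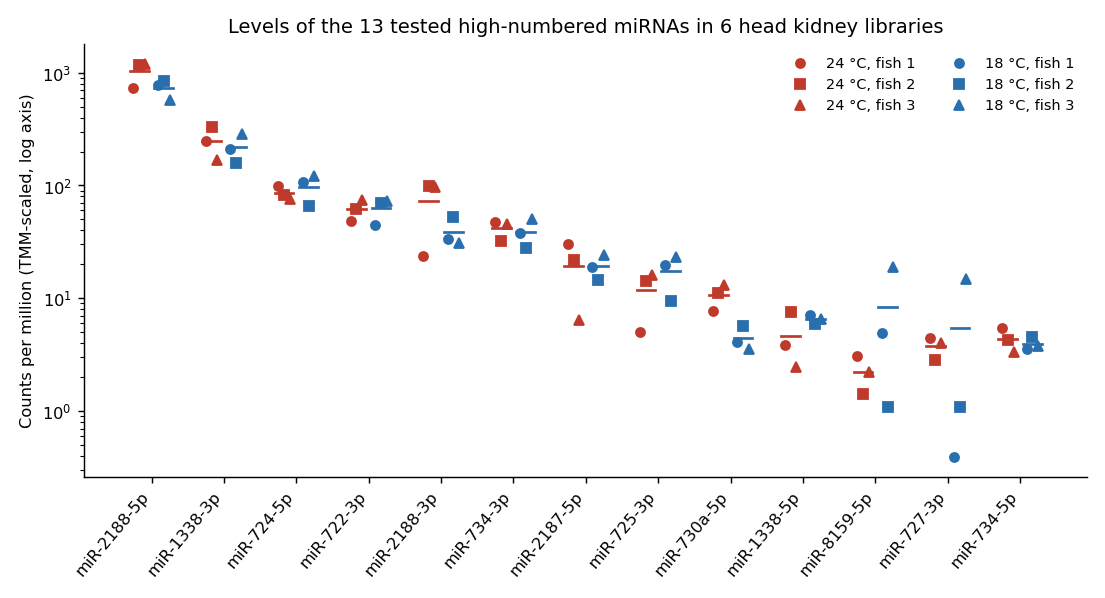
CPM (log axis) of the 13 tested high-numbered miRNAs in each of 6 head kidney libraries, with heat fish (24 °C) in red to the left of control fish (18 °C) in blue, 1 marker shape per fish number and a bar at each group mean. Levels run from 1202 CPM for miR-2188-5p in heat fish 3 down to 0.392 CPM for miR-727-3p in control fish 1, and miR-730a-5p is the 1 of these 13 rows whose groups do not overlap.

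miR-2188-5p was the most abundant of the 29, at rank 71 of the 392 annotated rows. It had 725, 1177 and 1202 CPM in heat fish 1, 2 and 3, against 776, 843 and 575 CPM in control fish 1, 2 and 3. Heat fish 2 and 3 lay above every control fish, while heat fish 1 lay among them, so the groups overlapped. The means were 1035 ± 268 CPM in heat and 731.4 ± 139.6 CPM in control fish (SD, n = 3 each), a log2 fold change of 0.50 ± 0.26 (SE; 95% interval -0.10 to 1.11) that did not pass (edgeR quasi-likelihood adjusted p = 0.63).

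The other arm of the same hairpin followed the same fish with a wider spread. miR-2188-3p had 23.5, 98.6 and 96.9 CPM in the heat fish, against 33.3, 52.2 and 31.2 CPM in the control fish. Heat fish 1 held the least of all 6 and heat fish 2 and 3 the most. The log2 fold change was 0.91 ± 0.55 (95% interval -0.38 to 2.20; edgeR adjusted p = 0.69). With a library left out it ran from 0.62 without heat fish 3 to 1.33 without heat fish 1 (edgeR adjusted p = 0.57 for the latter). The red cell list, in the same order of libraries, summed to 405, 1604 and 3052 CPM in the heat fish and 481, 870 and 383 CPM in the control fish. Heat fish 2 and 3 and control fish 2 were thus the 3 libraries with most of both miR-2188 arms and of the red cell miRNAs. The part of red cells in the miR-2188 values was not tested.

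The summed share of all 29 rows was likewise highest in heat fish 2 and 3. The 29 rows took 0.127%, 0.174% and 0.181% of all counts in heat fish 1, 2 and 3, against 0.128%, 0.125% and 0.125% in the control fish. In heat fish 2 the exact binomial 95% interval ran from 0.171% to 0.178%, and in control fish 1 from 0.125% to 0.131%, intervals that cover counting error only. The means were 0.161% ± 0.0295 in heat and 0.126% ± 0.0018 in control fish (SD, n = 3 each), a difference of 0.0345 percentage points (two-sided exact permutation p = 0.2, where 0.1 is the smallest that 3 against 3 allows). Without miR-2188 the shares were 0.0499% ± 0.00525 in heat and 0.0490% ± 0.0138 in control fish, and the difference was 0.000898 percentage points (two-sided exact permutation p = 1).

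miR-1338-3p came second in level. It had 249, 331 and 169 CPM in the heat fish, against 212, 159 and 286 CPM in the control fish. The groups overlapped over most of their range, and the log2 fold change was 0.19 ± 0.33 (95% interval -0.57 to 0.95; edgeR adjusted p = 0.92). Its partner miR-1338-5p was far scarcer, with 3.86, 7.53 and 2.44 CPM in the heat fish and 7.06, 5.92 and 6.48 CPM in the control fish. The control fish lay close together and inside the range of the heat fish (log2 fold change -0.50 ± 0.45, edgeR adjusted p = 0.84).

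In the middle of the range were miR-724-5p, miR-722-3p and miR-734-3p, at means over all fish of 91.5, 62.1 and 40.3 CPM. Their group means lay closer together than the highest and lowest fish of each group. miR-724-5p, the 1 row of its family, had 98.4, 82.8 and 75.4 CPM in the heat fish, against 107, 65.1 and 121 CPM in the control fish. All 3 heat fish lay within the range of the control fish, with a log2 fold change of -0.19 ± 0.29. miR-722-3p, the neutrophil-linked family, had 48.0, 62.3 and 74.7 CPM in the heat fish and 44.5, 70.0 and 73.0 CPM in the control fish. The group means were 61.7 ± 13.3 CPM in heat and 62.5 ± 15.6 CPM in control fish (SD, n = 3 each), and the log2 fold change was -0.02 ± 0.31. miR-734-3p had 47.8, 32.5 and 45.2 CPM in the heat fish and 37.7, 28.0 and 50.4 CPM in the control fish, with a log2 fold change of 0.11 ± 0.33. For these 3 rows and miR-1338-3p, and for no other of the 13, the 95% interval of the fold change stayed within 2-fold either way.

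Lower down, miR-2187-5p and miR-725-3p varied widely among the heat fish. miR-2187-5p had 30.3, 21.6 and 6.43 CPM in the heat fish, against 19.0, 14.5 and 24.1 CPM in the control fish. Heat fish 1 and 3 were the highest and lowest of all 6 libraries, so the highest heat level was 4.71 times the lowest, against 1.66 times among control fish. The group means were 19.5 ± 12.1 CPM in heat and 19.2 ± 4.76 CPM in control fish (SD, n = 3 each). miR-725-3p had 5.02, 14.4 and 16.2 CPM in the heat fish, against 19.8, 9.42 and 23.0 CPM in the control fish. Heat fish 1 was the lowest and control fish 1 and 3 the highest, and the log2 fold change was -0.56 ± 0.54 (95% interval -1.83 to 0.71).

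Of the 13 tested rows, miR-730a-5p was the 1 whose groups stood fully apart. It had 7.72, 11.1 and 13.1 CPM in the heat fish, against 4.12, 5.65 and 3.56 CPM in the control fish. In raw counts these were 40, 47 and 59 in the heat and 21, 21 and 17 in the control libraries. The log2 fold change was 1.26 ± 0.36 (95% interval 0.41 to 2.10), a 2.39-fold higher level in heat fish with an interval from 1.33 to 4.29. It was the only one of the 13 with an unadjusted p under 0.05 (edgeR, 0.0094), and it did not pass after adjustment over all 537 rows (edgeR adjusted p = 0.56). Of the 537 rows tested, 6.52% had an unadjusted p under 0.05 and 12.8% had groups that did not overlap, so 1 of 13 on either count was near the background. The 3p arm was nearly absent and was listed under 2 names, as miR-730a-3p (1, 0 and 2 counts in the heat, 0 in each control library) and as miR-730a-2-3p (1, 1 and 3 counts, and 0 in each control library). The table does not say how reads shared by these copies were assigned. The striated muscle list also stood fully apart. It summed to 1137, 1594 and 2326 CPM in heat fish 1, 2 and 3, against 438, 411 and 725 CPM in control fish 1, 2 and 3. Its order of fish was that of miR-730a-5p within the heat group and the reverse within the control group. The part of striated muscle in the miR-730a-5p difference was not tested.

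Among the rarest tested rows, miR-8159-5p and miR-727-3p had values that rested on control fish 3. miR-8159-5p had 3.09, 1.41 and 2.22 CPM in the heat fish, against 4.90, 1.08 and 19.0 CPM in the control fish. Its log2 fold change of -1.88 ± 0.93 (edgeR adjusted p = 0.63) was -0.48 without control fish 3 (edgeR adjusted p = 0.91). miR-727-3p had 4.44, 2.82 and 3.99 CPM in the heat fish, against 0.392, 1.08 and 14.8 CPM in the control fish. Control fish 1 and 2 lay below every heat fish and control fish 3 above them all. The log2 fold change of -0.54 ± 1.12 turned to 2.36 without control fish 3 (edgeR adjusted p = 0.68). miR-734-5p, the last of the tested rows, had 5.40, 4.23 and 3.33 CPM in the heat fish and 3.53, 4.57 and 3.76 CPM in the control fish, with a log2 fold change of 0.13 ± 0.37.

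Across the 13 tested rows, none passed between 24 °C and 18 °C in either direction by edgeR. Of all 537 rows 0.186% were called, which is 1 row, on the higher side. DESeq2 likewise called none of the 13, where it called 0.931% of all 537 rows, and limma-voom none, where it called 0.186%. Each gave 1 of the 13 an unadjusted p under 0.05, a level reached by 8.75% of all rows in DESeq2 and 5.21% in limma-voom. The log2 fold changes were positive for 7 and negative for 6, from -1.88 to 1.26, with a median of 0.02 beside 0.002 over all 537 rows. Summed by family, 10 of the 18 families could be tested and none passed, where 0.281% of 356 families and predicted rows were called. The family sums of miR-2188 (log2 fold change 0.48 ± 0.30), miR-1338 (0.14 ± 0.32) and miR-730 (1.29 ± 0.41) stayed close to those of their main rows. The family adjusted p-values from edgeR ran from 0.65 to 1.00. Of 14 tested rows of the comparison list of families outside this set none was called. Among them 4 had an unadjusted edgeR p under 0.05, 1 on the higher and 3 on the lower side, where 6.52% of all 537 rows had one. The list was chosen with earlier results of these data known.

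**Figure D2:**
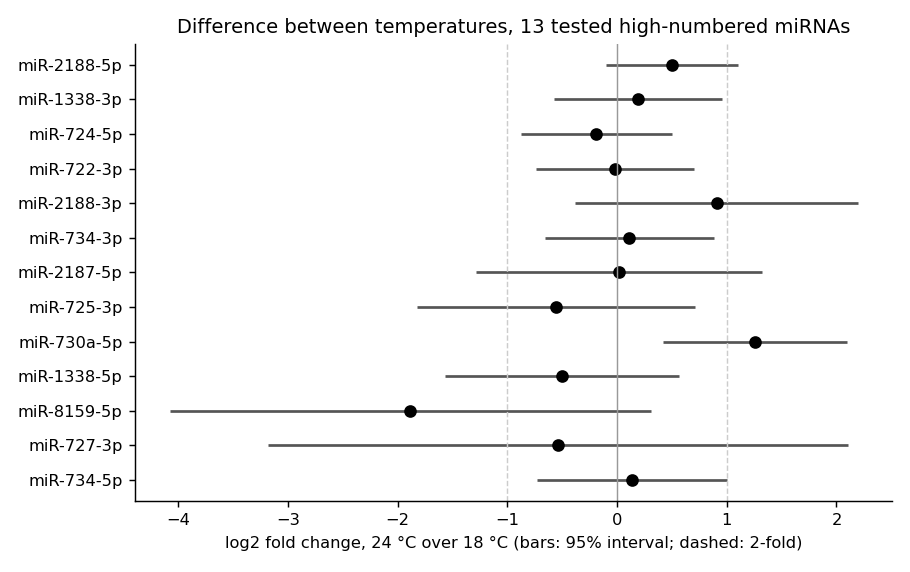
Log2 fold change (24 °C over 18 °C, edgeR) of the 13 tested high-numbered miRNAs, ordered by level, with 95% intervals as bars and dashed lines at 2-fold either way. The interval of miR-730a-5p, 0.41 to 2.10, is the 1 that leaves out 0, and those of miR-8159-5p and miR-727-3p are the widest.

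The spread between fish of the same group varied widely among these rows, measured as the coefficient of variation within groups. It was lowest for miR-734-5p at 20.1%, and between 23.4% and 24.5% for miR-722-3p, miR-724-5p, miR-2188-5p and miR-734-3p. It reached 56.1% for miR-2188-3p, 126.2% for miR-727-3p and 127% for miR-8159-5p. In the order of all 537 tested rows, miR-727-3p lay at percentile 98.7 and miR-8159-5p at percentile 98.9. The median over the 13 was 31.0%, beside 22.9% for the other annotated rows, 25.1% for the 180 of those within the same range of levels, and 40.3% for the predicted rows. The 180 were not matched by level, since their median level was 37.3 CPM, against 19.3 CPM for the 13.

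Counting error was small beside this spread in the abundant rows and close to it in some rare ones. For miR-2188-5p counting error was worth a coefficient of variation of 1.59%, so the spread between fish was 15.2 times as large. The ratio was 10.2 for miR-1338-3p, 3.90 for miR-722-3p, 1.59 for miR-730a-5p and 0.870 for miR-734-5p. The spread of miR-734-5p was thus below its estimated counting error. With 3 fish per group this cannot show that its fish did not differ, and no test of it was run. The ratio was 6.38 for miR-8159-5p and 5.86 for miR-727-3p, at means of 5.29 and 4.59 CPM over all fish. Control fish 3 held the highest level of 5 of the 13 rows (miR-724-5p, miR-734-3p, miR-725-3p, miR-8159-5p and miR-727-3p), and control fish 2 the lowest level of 4.

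**Figure D3:**
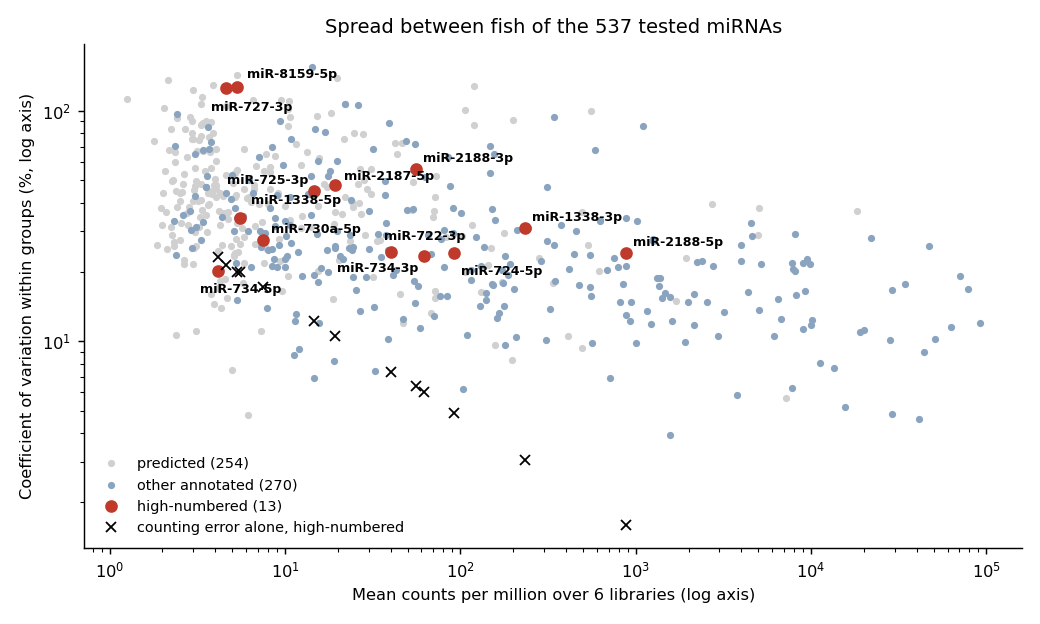
Coefficient of variation within groups against the mean level over 6 libraries, both on log axes, for the 537 tested miRNAs, with the 13 high-numbered rows in red and crosses at the value that counting error alone would give each of them. miR-8159-5p and miR-727-3p lie near the top at 127% and 126.2%, while miR-2188-5p lies at 24.2%, far above its cross at 1.59%.

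Both arms of a hairpin were listed for 10 precursors of this set, and the dominant arm was 5p in 5 of them and 3p in the other 5. Among the other 121 annotated precursors with both arms listed it was 5p in 73. The dominant arm took more than 90% of the counts in 8 of the 10, and in 90 of the other 121. No difference from the other precursors was tested.

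The 5p arm dominated miR-2188, miR-2187, miR-730a, miR-737 and miR-8160. Over all libraries 5p held 94.2% of the miR-2188 counts (exact binomial 95% interval 93.9% to 94.4%), 95.8% of those of miR-2187 (93.8% to 97.3%) and 98.6% of those of miR-730a (95.8% to 99.7%). The miR-730a share took miR-730a-3p (3 counts in all) as the 3p arm and left out miR-730a-2-3p (5 counts in all). miR-737 and miR-8160 rested on 26 and 27 counts. Within single libraries the 5p share of miR-2188 was 96.9%, 92.3% and 92.5% in the heat fish, against 95.9%, 94.2% and 94.9% in the control fish. Heat fish 1 (interval 96.3% to 97.4%) and heat fish 2 (91.5% to 93.0%) thus differed by more than counting error, and the control fish lay between them.

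The 3p arm dominated miR-722, miR-725, miR-1338, miR-734 and miR-727. The 5p share was 0.354% for miR-722 (exact binomial 95% interval 0.130% to 0.770%), 0.733% for miR-725 (0.152% to 2.13%), 2.29% for miR-1338 (1.94% to 2.67%) and 9.19% for miR-734 (7.64% to 10.9%). miR-722-3p thus had 281 times the counts of miR-722-5p, the most one-sided of the 10 hairpins. miR-727 was the most balanced, at 29.7% 5p (23.2% to 36.9%), and the only precursor of the set whose dominant arm turned between libraries (miR-737 had no count of either arm in control fish 1). Its 5p share was 36.1%, 20.0% and 21.7% in the heat fish, against 71.4%, 63.6% and 23.7% in the control fish. The high values of control fish 1 and 2 rested on 7 and 11 counts, and their intervals (29.0% to 96.3% and 30.8% to 89.1%) overlapped that of control fish 3 (15.5% to 33.6%). Overlapping intervals do not show that counting error covers the difference, and no direct test between these fish was run.

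**Figure D4:**
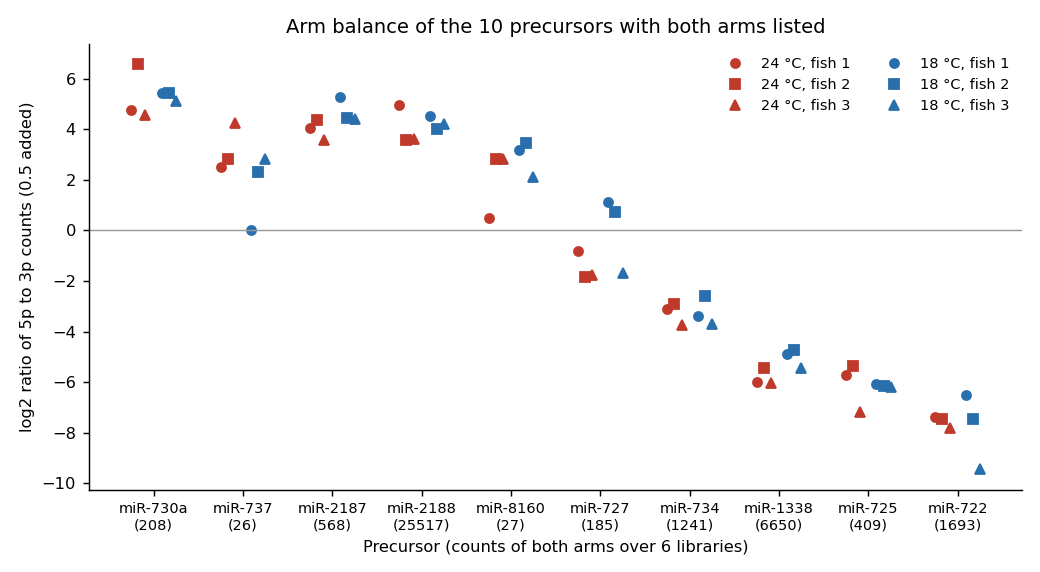
Log2 ratio of 5p to 3p counts, with 0.5 added to each, for the 10 high-numbered precursors with both arms listed, ordered by pooled 5p share, with heat fish (24 °C) in red left of control fish (18 °C) in blue and the summed counts in brackets. The line at 0 marks equal arms, and miR-727 is the hairpin that lies on both sides of it, with 2 control fish above and the other 4 fish below.

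Between the temperatures, 3 of these precursors had enough counts on both arms to be tested, and none passed (limma; 0% of the 79 annotated precursors tested were called). miR-1338 had the largest difference of the 3. Its 5p share was 1.52%, 2.23% and 1.42% in the heat fish, against 3.23%, 3.59% and 2.22% in the control fish. The groups overlapped only at heat fish 2 and control fish 3. The log2 ratio of 5p to 3p averaged -5.82 ± 0.338 in heat and -5.01 ± 0.378 in control fish (SD, n = 3 each), a difference of -0.81 ± 0.30 (SE; 95% interval -1.50 to -0.12). It had an unadjusted limma p of 0.027, as 8.86% of the 79 had one under 0.05, and a limma adjusted p of 0.42. The ratio of miR-2188 differed by -0.20 ± 0.40 and that of miR-734 by -0.03 ± 0.36, with limma adjusted p-values of 0.96 for both. With a library left out, the miR-1338 difference ran from -1.02 to -0.66.

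With a lower demand of 2 counts per arm, 98 precursors were tested and 5 were of this set. The log2 ratio of miR-2187 averaged 3.99 ± 0.404 in heat and 4.71 ± 0.501 in control fish (SD, n = 3 each), and all 3 heat fish lay below all 3 control fish. Of the 79 precursors of the main test, which did not include miR-2187, 11.4% had groups that did not overlap. The share among the 98 was not counted. The 3p arm of miR-2187 had only 9, 4 and 2 counts in the heat and 2, 2 and 5 in the control libraries. The difference was -0.72 ± 0.36 (limma adjusted p = 0.63). The ratio of miR-727 differed by -1.53 ± 0.74 (limma adjusted p = 0.63).

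The remaining 16 rows did not pass the count filter. The 4 with more than 10 counts in all were miR-727-5p (55), miR-737-5p (25), miR-8160-5p (24) and miR-2187-3p (24). miR-727-5p had 13, 3 and 5 counts in the heat and 5, 7 and 22 in the control libraries, so control fish 3 was highest for both arms of miR-727. miR-737-5p had 8, 3 and 9 counts in the heat and 0, 2 and 3 in the control libraries. The control counts were at or under the floor of 3, and heat fish 2, at 3 counts, tied with control fish 3. In CPM, which allows for library size, heat fish 2 lay above control fish 3 (0.706 against 0.627), so the groups did not overlap. miR-8160-5p had 3, 3 and 3 counts in the heat and 4, 5 and 6 in the control libraries. These groups did not overlap in counts or in CPM, at counts close to the floor. The groups of miR-730a-2-3p, with 1, 1 and 3 counts in the heat and 0 in each control library, did not overlap either. Among the 537 tested rows 12.8% had groups that did not overlap, and the share among the untested rows was not counted. With no filter on low counts edgeR tested all 29 rows and called none (smallest edgeR adjusted p = 0.79).

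The other 12 rows had 1 to 6 counts over all 6 libraries. These were the minor arms miR-722-5p, miR-725-5p, miR-730a-3p, miR-730a-2-3p, miR-737-3p and miR-8160-3p, and the rows miR-723-3p, miR-729-3p, miR-736-3p, miR-1788-5p, miR-2184-5p and miR-7552a-5p, with no second arm in the table. miR-723-3p had 1, 1 and 2 counts in the heat and 1, 0 and 1 in the control libraries. miR-736-3p and miR-2184-5p were single counts in heat fish 3 and heat fish 1, and miR-1788-5p had 2 and 1 counts in control fish 1 and 3. With no filter on low counts edgeR called none of these rows, and apart from miR-730a-2-3p the groups of each overlapped. At this depth a count of 0 allows a level of up to 0.579 to 0.807 CPM.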

How the data were processed

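Small RNA libraries (NEBNext small RNA kit, TRIzol-extracted total RNA, per the labels' protocols) were deposited as one table of read counts per miRNA row. The count values deposited by the authors are whole numbers. The authors' TPM column is each count over its library's sum, with no length term, and was not used further. The submitters' processing notes name Bowtie. Its version, the genome build and the handling of reads that match several rows are not stated in the labels or headers.

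The count test was edgeR 4.0.16 (R 4.3.3): filterByExpr (minimum count 10, minimum total 15; 537 rows kept), TMM scaling, robust quasi-likelihood fit, heat over control, Benjamini-Hochberg adjustment over all kept rows, threshold 0.05. Family sums (all letters, copies and arms of a number) went through the same fit. Ratios of 5p to 3p counts, with 0.5 added, were tested with limma 3.58.1 over the 79 annotated precursors whose arms each averaged 10 counts or more. Shares were compared by exact permutation. Standard errors of edgeR fold changes are the log2 fold change over the root of F. DESeq2 1.42.0, limma-voom, other scalings and filters, a replicate block and each library left out were alternatives. Scripts were checked on simulated counts. Every pair of libraries differed beyond sampling noise (chi-square over its degrees of freedom 117 or more).

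The set of miRNAs, the marker lists and the comparison list of families outside the set were chosen with earlier results of these data known. Named were the 12 most abundant rows, the 5 smallest p-values per direction, and both arms of each precursor tested, which covers all 13 tested rows. Rows outside this rule were named after their counts were seen. Figures were drawn with matplotlib 3.10.9.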

Additional observations from a re-analysis of the deposited data

How the results depend on the processing

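The numbers of high-numbered rows higher or lower at 24 °C, of families higher or lower, and of precursors with a shifted arm ratio were 0 in the main tests and 0 under every alternative run, from scaling and filters to DESeq2, limma-voom and each library left out. Under the replicate block they were 0 as well. Same-numbered fish did not deviate together (correlations of -0.06, -0.19 and -0.15), and 0 of 6 libraries correlated best with its own number. The difference in summed share was 0.0345 percentage points, 0.0245 to 0.0514 with a library left out, and 0.000898 without miR-2188, the family that holds most of the counts. Of 331 values of named rows, families and arm ratios under the alternatives, 43 had the other sign, in the rows or families of miR-1338, miR-722, miR-727, miR-734 and miR-2187 and the arm ratios of miR-2188 and miR-734, and none of these was called in any fit. The log2 fold change of miR-730a-5p ran from 1.04 to 1.44 (edgeR and DESeq2 adjusted p from 0.23 to 0.87), and that of miR-2188-5p from 0.34 to 0.69. With 3 fish per group and few counts, changes of the rare rows were measured with wide intervals, and 16 of 29 rows were too rare to test.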
